A study of Mus musculus with 6 samples.

Results

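The genes described here encode the early response transcription factors of the AP-1 and EGR families. They were chosen by symbol: the FOS genes Fos, Fosb, Fosl1 and Fosl2, the JUN genes Jun, Junb and Jund, and the EGR genes Egr1, Egr2 and Egr3. All 10 were among the 24062 symbols of the count table, and all 10 passed the filter on low counts that left 13990 genes for testing. RNA sequencing read counts came from mouse embryonic fibroblasts (primary connective tissue cells of the embryo) of strain C57BL/6. There were 2 groups of 3 libraries, EV control and p27OE, both labelled day 10. The p27OE cells received a lentivirus carrying p27, the product of Cdkn1b that blocks cyclin-dependent kinases, and the labels name neither its promoter nor the content of the control vector. The p27OE titles carry the word senescent and the treatment text says the same, whereas the design text of the series calls the cells non-senescent, so the groups are compared here by name only. Nothing states that the 3 samples of a group were separate cultures. The p-values therefore judge group differences against the spread between these samples, which may be technical in part. That spread also holds a difference in Y-linked level between the libraries numbered 1 and the others of their group, given below.

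FOS and JUN proteins carry a basic region and a leucine zipper. They bind DNA as dimers, JUN with FOS or JUN with JUN, and together make up AP-1. FOS proteins do not form stable dimers with one another. EGR proteins are zinc finger factors that bind GC-rich DNA. Growth factors and stress induce Fos, Fosb, Egr1, Egr2 and Egr3 within minutes, through MAP kinases that act on SRF with its ETS partners and on CREB, and the transcripts are short-lived. Fosl1, Fosl2 and Jund are more lasting members, and Fosl1 and Fosl2 encode FRA1 and FRA2. In fibroblasts AP-1 is best known for the control of proliferation and of matrix protease genes.

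Library totals ran from 39183624 to 61219345 counts. Cdkn1b, the introduced gene, was at 43.9, 31.5 and 32.3 CPM (counts scaled to library size, with TMM factors) in EV control 1, 2 and 3 and at 167, 232 and 337 CPM in p27OE 1, 2 and 3, so every library went with its label. Cdkn1b rose by 2.77 ± 0.29 on the log2 scale (SE), with an edgeR adjusted p of 0.028, or 0.0563 to 0.189 with any 1 library other than EV control 1 left out. Of 10 fibroblast marker genes all were detected, with summed levels of 34630 to 50350 CPM in EV control and 31070 to 38590 CPM in p27OE. The libraries numbered 1 stood apart in both groups. The summed CPM of the Y-linked genes Ddx3y, Eif2s3y, Kdm5d and Uty was 0.125 in EV control 1 and 1.95 in p27OE 1. It was 126 in EV control 2, 124 in EV control 3 and 137 in p27OE 3, and p27OE 2 lay between, at 57.1. EV control 1 also held the highest summed level of 15 macrophage markers, 106.8 CPM against 19.8 to 38.8 CPM in the other libraries. The part of these differences in the values below was not tested except by the fits named beside them.

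Promoter windows of RefSeq (GRCm38.p6, 250 bases before to 50 after the annotated start) were found for 7 of the 10 genes: Fos, Fosb, Fosl2, Jun, Junb, Jund and Egr2. Stretches are shown for Fos and Fosb, whose groups did not overlap, for Jun and Junb, which did overlap, and for Egr2, the gene of widest range over the libraries. Each is written 5′ to 3′ along its gene, outside the annotated exons, and capitals mark the motifs searched. For Fos the stretch is chr12:85473770-85473889 (plus strand), for Fosb chr7:19310052-19310171 (minus strand), for Jun chr4:95052223-95052342 (minus strand), for Junb chr8:84978749-84978868 (minus strand) and for Egr2 chr10:67537787-67537816 (plus strand).
Fos: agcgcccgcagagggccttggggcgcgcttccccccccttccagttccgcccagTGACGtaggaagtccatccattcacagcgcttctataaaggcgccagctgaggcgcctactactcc
Fosb: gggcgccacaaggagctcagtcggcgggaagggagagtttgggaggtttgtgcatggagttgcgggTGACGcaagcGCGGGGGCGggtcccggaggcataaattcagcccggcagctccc
Jun: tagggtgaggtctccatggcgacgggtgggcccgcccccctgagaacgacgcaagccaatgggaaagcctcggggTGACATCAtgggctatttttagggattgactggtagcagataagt
Junb: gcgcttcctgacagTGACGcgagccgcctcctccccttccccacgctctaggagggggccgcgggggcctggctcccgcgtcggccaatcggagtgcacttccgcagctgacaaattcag
Egr2: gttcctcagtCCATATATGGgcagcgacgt

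The motifs were searched on both strands of the whole 300-base windows. The core of a CREB or ATF site, TGACG, was found for 4 of the 7 genes, Fos, Fosb, Junb and Egr2. Egr2 has 5 overlapping or neighbouring windows, for different annotated starts, and each other gene has 1, so counts per gene and per window differ. Of 11 windows, 6 held TGACG, 3 of them overlapping windows of Egr2 that repeat the same matches. Over all 32851 promoter windows TGACG was in 20.8%. Counted from the start, it began at -66 and -129 in Fos (the latter beyond the stretch shown), at -60 in Fosb, at -106 in Junb and, in the Egr2 window of the start used for the stretch shown, at -111 and -55. The full palindrome TGACGTCA, which contains TGACG, was in none of the 7 and in 1.79% of all windows. Jun held TGACATCA, a variant of the AP-1 site, beginning at -45, as did 3.62% of all windows, and the AP-1 site proper, TGANTCA, was in none of the 7 and in 7.81% of all windows. The EGR motif GCGNGGGCG was in Fosb and Fosl2 and in 5.55% of all windows. For Fosl2 all 250 bases before the RefSeq start lie in annotated GENCODE exons, and so does this match. A CArG box, the SRF motif, was in 4 of the 5 windows of Egr2, some of which overlap and repeat the same match. The box was in no window of the other 6 genes and in 1.63% of all windows. Bases further than 250 before a start were not searched for any gene, so a site lying there would be missed. The match shown begins at -72 from one of the annotated starts of Egr2. That Egr2 window was chosen for holding a CArG box and TGACG, and its stretch was centred on the box. Their presence there was thus fixed by the choice. These are matches of letters in a short window, and no binding was measured.

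Levels between genes were compared as CPM per kilobase of merged exon (GENCODE M21), over 6 libraries. The JUN genes led, with means of 47.7 ± 4.93 (SD, n = 6) for Jund, 43.1 ± 5.78 for Jun and 31.5 ± 6.72 for Junb. Fosl2 followed at 27.9 ± 2.67 and Egr1 at 20.4 ± 3.65. Below them came Fosl1 at 4.19 ± 1.42, Fos at 3.53 ± 0.577, Egr2 at 3.25 ± 1.41, Egr3 at 1.61 ± 0.536 and Fosb at 0.482 ± 0.155. Neighbours in this order overlapped in their ranges over the libraries, with 2 exceptions: Egr1, at 14.8 or more in every library, stood clear of Fosl1, at 6.11 or less, and Egr3, at 0.982 or more, stood clear of Fosb, at 0.650 or less. Dividing by the longest coding transcript in place of merged exons put Fosl2 above Junb and left the other ranks as they were. RefSeq places the start of Jund further upstream than GENCODE does, so its length, and its level per kilobase, are uncertain.

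**Figure D1:**
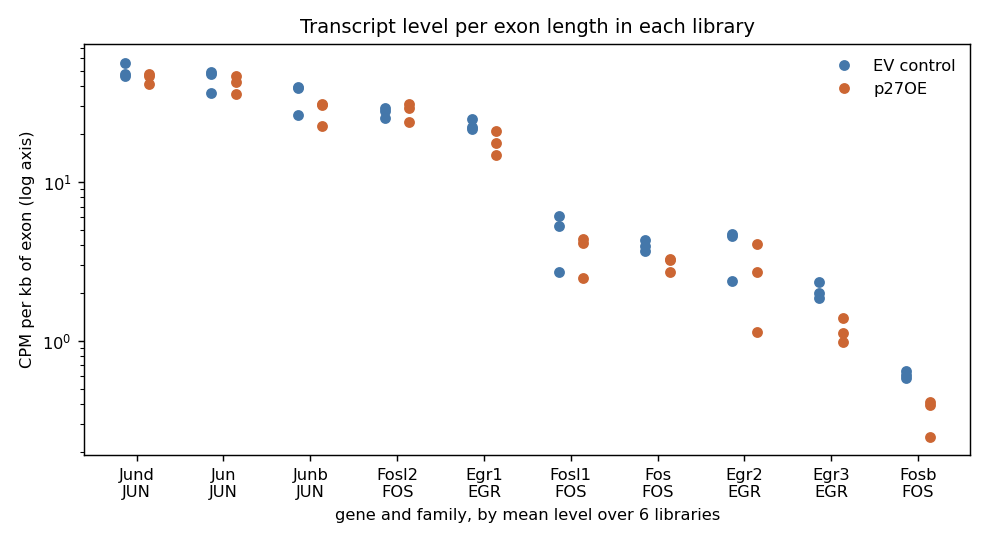
Level of each gene in CPM per kb of merged exon (log axis), 1 point per library, blue for EV control and orange for p27OE, ordered by the mean over 6 libraries. Jund to Egr1 lie at 14.8 or above in every library, and Fosl1 to Fosb at 6.11 or below.

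Of the 10 genes, 9 had a log2 fold change below 0 in p27OE against EV control, with a median of -0.37 where all tested genes had a median of 0.01 and 48.2% of them lay below 0. None of the 10 passed (edgeR, adjusted p under 0.05), while 2.61% of all tested genes did. At an unadjusted p under 0.05, 4 were lower, Fos, Fosb, Egr1 and Egr3, beside 12.9% of all genes that were lower by that rule and 26.0% in either direction. DESeq2 called 2 of the 10 as lower, Fosb and Egr3, beside 8.41% of all genes lower and 16.6% called in all by it, and limma-voom called none. The 3 p27OE values lay below all 3 EV control values for the same 4 genes, Fos, Fosb, Egr1 and Egr3, and the groups overlapped for the other 6. Over all tested genes, p27OE lay below in 16.5% and the groups were apart in either direction in 33.3%. Counts were also simulated at this spread, each library drawn independently, without the shift shared by the libraries numbered 1. Over 13822 genes, edgeR called 20.9% of 1.5-fold, 68.7% of 2-fold and 95.5% of 4-fold changes in them. Only genes with a mean above 4 CPM were changed, which leaves out Fosb. These rates therefore do not carry over directly to the 10 genes.

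**Figure D2:**
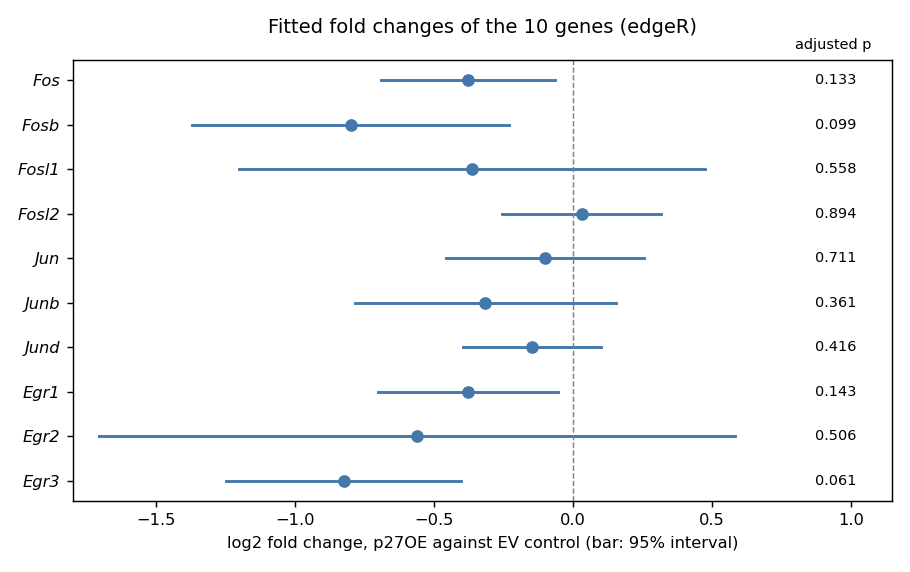
Fitted log2 fold change of each gene with its 95% interval and its edgeR adjusted p. The intervals of Fos, Fosb, Egr1 and Egr3 lie below 0 and those of the other 6 genes include it, and no adjusted p is under 0.05.

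Egr3, a zinc finger factor of the EGR family that is itself induced by other early factors, was the lowest relative to control. The gene lies at chr14:70077203-70082614 (GRCm38, plus strand). It measured 8.15, 8.78 and 10.4 CPM under control against 4.33, 6.11 and 4.95 CPM under p27OE, libraries 1 to 3 in order here and below. Every p27OE library lay under every control, and the highest of them, p27OE 2, was still short of EV control 1. Its fitted log2 fold change was -0.83 ± 0.18 (SE, 95% interval -1.25 to -0.40), with an edgeR adjusted p of 0.0607. Counts behind these values ran from 200 to 531 per library. Between the libraries numbered 1 the difference in log2 CPM was -0.91, and from the mean of EV control 2 and 3, p27OE 3 differed by -0.94 and p27OE 2 by -0.64. Over 16 other settings the log2 fold change stayed between -0.99 and -0.72 and the gene was called in 5 of them.

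Egr1, the most abundant EGR gene and a sensor of growth factor and ERK signals, measured 100, 97.1 and 112 CPM under control against 78.8, 93.3 and 66.2 CPM under p27OE. The groups did not overlap, but p27OE 2 came close to EV control 2. The log2 fold change was -0.38 ± 0.13 (SE, 95% interval -0.70 to -0.05, edgeR adjusted p = 0.143). Egr2, known from hindbrain patterning and myelination, measured 8.10, 15.9 and 15.5 CPM under control against 3.85, 9.19 and 13.8 CPM under p27OE. Here the low libraries were those numbered 1, and p27OE 3 was above EV control 1. Its log2 fold change of -0.56 ± 0.48 (SE) had a 95% interval from -1.70 to 0.58 and an edgeR adjusted p of 0.506. It was -0.22 without p27OE 1 and -1.01 without p27OE 3. Egr2 had the widest range of the 10 genes over the 6 libraries, 2.03 log2 units.

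Per kilobase, the 3 EGR genes summed to 29.0 ± 2.73 in EV control and 21.5 ± 2.94 in p27OE (SD, n = 3 each). Egr1 supplied 74.0% to 89.3% of that sum. The share of Egr3 was 7.12 ± 0.215% in EV control and 5.40 ± 0.356% in p27OE, and its libraries did not overlap, with 6.96% the lowest control share and 5.63% the highest p27OE share. These sums and shares are descriptions, with no test. The fourth EGR gene, Egr4, was nearly silent, with 0, 12 and 2 counts in the controls and 12, 28 and 28 counts in p27OE. Its value was thus of opposite sign to those of Egr1, Egr2 and Egr3, without passing (edgeR adjusted p = 0.15, log2 fold change 2.46, or 4.28 without EV control 2). Nab1 and Nab2, which encode corepressors that bind EGR proteins, were at -0.09 ± 0.09 and -0.11 ± 0.07 on the log2 fold change scale (SE) and did not pass. Nab2 measured 163, 162 and 173 CPM under control against 146, 160 and 155 CPM under p27OE, apart by a narrow gap.

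Fosb, whose transcripts make both a full-length and a truncated protein, was the FOS gene furthest below control. The gene lies at chr7:19302696-19310051 (GRCm38, minus strand). It measured 3.62, 3.79 and 4.06 CPM under control against 1.56, 2.46 and 2.57 CPM under p27OE. The controls were tightly grouped and p27OE 1 was the lowest library. Its fitted log2 fold change was -0.80 ± 0.24 (SE, 95% interval -1.37 to -0.23, edgeR adjusted p = 0.0992), on 72 to 229 counts per library. The difference in log2 CPM was -1.20 between the libraries numbered 1, and from the mean of EV control 2 and 3 it was -0.60 for p27OE 3 and -0.66 for p27OE 2.

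Fos, the prototype early response gene, measured 8.65, 9.33 and 10.2 CPM under control against 7.68, 7.57 and 6.42 CPM under p27OE. All 3 p27OE libraries were lower than all controls, by a small margin between p27OE 1 and EV control 1. The log2 fold change was -0.38 ± 0.13 (SE, 95% interval -0.69 to -0.07, edgeR adjusted p = 0.133). Fosl1, which encodes FRA1 and is a target of ERK signalling, measured 5.50, 10.8 and 12.4 CPM under control against 5.06, 8.90 and 8.39 CPM under p27OE. The lowest library in each group was the one numbered 1, and EV control 1 was near p27OE 1. Its fitted log2 fold change was -0.36 ± 0.35 (SE, 95% interval -1.20 to 0.48, edgeR adjusted p = 0.558). It was -0.66 without EV control 1, -0.13 without EV control 3 and -0.17 without p27OE 1. In GENCODE M21, 57.2% of the exonic bases of Fosl1 are shared with Ccdc85b on the other strand, a gene whose mean was 29.8 CPM for control and 32.4 CPM for p27OE. Because the strand setting of the counting is not given, the count of Fosl1 is uncertain.

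Fosl2, which encodes FRA2, was the one gene of the 10 with a fitted value above 0. It measured 245, 273 and 283 CPM under control against 233, 284 and 301 CPM under p27OE, so the groups overlapped throughout. The fold change was 1.02 with a 95% interval from 0.839 to 1.25 (edgeR adjusted p = 0.894). Its direction turned in 3 of the 6 fits that left out 1 library, at log2 fold changes of -0.04 without EV control 1, -0.01 without p27OE 2 and -0.05 without p27OE 3. Per kilobase Fosl2 made up 75.0 ± 3.08% of the FOS family in EV control and 79.9 ± 1.24% in p27OE (SD, n = 3), the lowest p27OE share being 78.6% and the highest control share 78.4%. Fosb made up 1.67 ± 0.114% and 0.987 ± 0.136%. The summed FOS level was 36.9 ± 4.15 and 35.2 ± 4.53 CPM per kb, with overlapping groups.

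**Figure D3:**
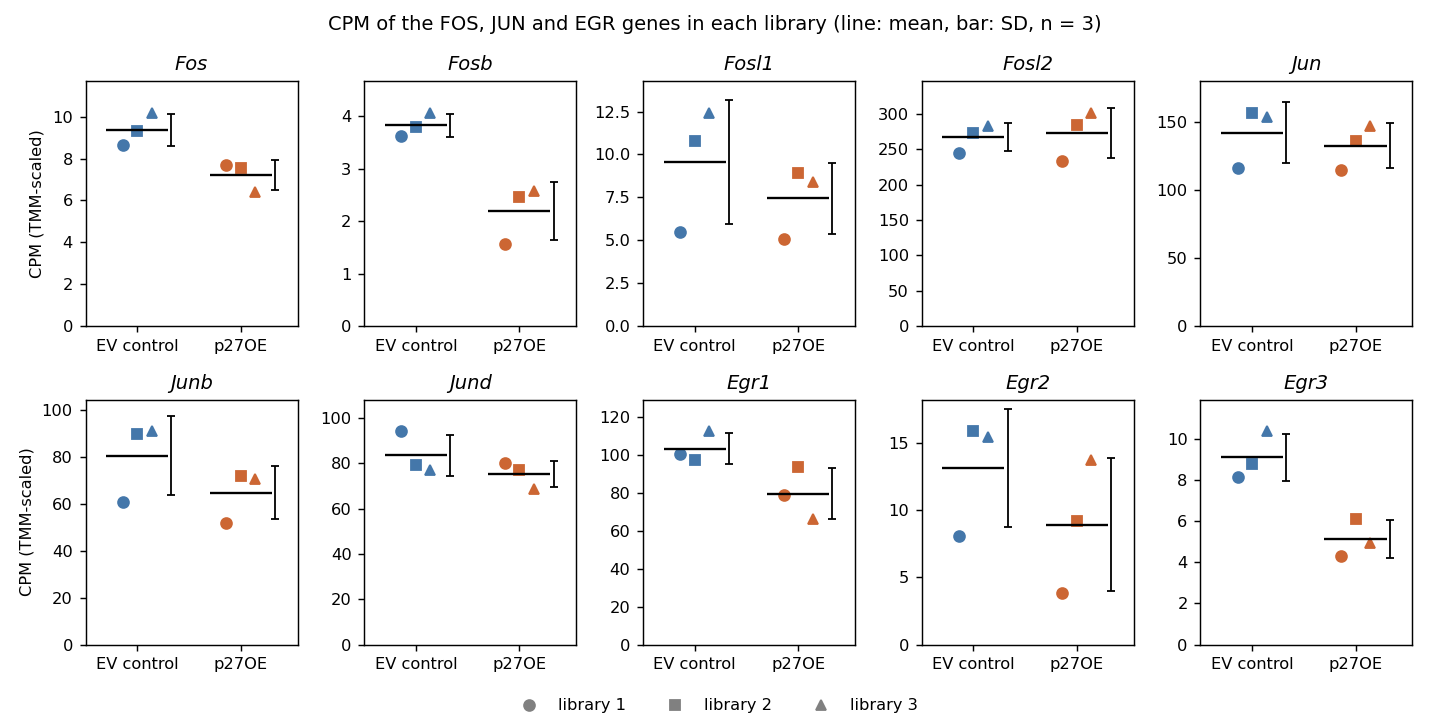
TMM-scaled CPM of each gene in the 6 libraries (points, shape by library number), with the group mean (line) and SD (bar, n = 3). Fos, Fosb, Egr1 and Egr3 have every p27OE library below every control, and the circles of library 1 are lowest in both groups for Fosl1, Fosl2, Jun, Junb and Egr2 as well as Fosb and Egr3.

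The JUN genes overlapped between the groups. Jun, the main transactivating JUN gene, measured 116.5, 157 and 154 CPM under control against 115, 136 and 147.5 CPM under p27OE. Both libraries numbered 1 were low and alike. The log2 fold change was -0.10 ± 0.15 (SE, 95% interval -0.46 to 0.26, edgeR adjusted p = 0.711), and leaving out single libraries moved it from -0.24 (without EV control 1) to -0.02 (without p27OE 1). Junb, whose protein restrains cell division in several settings, measured 60.9, 89.5 and 90.7 CPM under control against 51.6, 71.8 and 70.4 CPM under p27OE. EV control 1 lay inside the range of the p27OE libraries. Its log2 fold change was -0.32 ± 0.20 (SE, 95% interval -0.78 to 0.15, edgeR adjusted p = 0.361), with -0.50 without EV control 1 and -0.20 without p27OE 1. With both libraries numbered 1 left out it was called, at an edgeR adjusted p of 0.0289, which left 2 libraries a group.

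Jund, the JUN gene least tied to growth stimulation, measured 94.1, 79.4 and 77.1 CPM under control against 80.3, 77.1 and 68.9 CPM under p27OE. It was highest in the libraries numbered 1 of both groups, the reverse of Jun and Junb. Its fitted log2 fold change was -0.15 ± 0.10 (SE, 95% interval -0.40 to 0.10, edgeR adjusted p = 0.416), with -0.07 without EV control 1 and -0.09 without p27OE 3. Within the family, Jund took 47.3% and 45.2% of the summed level per kilobase in EV control 1 and p27OE 1 and 34.6% to 38.5% in the other libraries. The family total was 129.7 ± 8.94 CPM per kb in EV control and 114.9 ± 7.33 in p27OE (SD, n = 3). Antisense neighbours share 52.6% of the exonic bases of Jund (Gm11175), 7.52% of Junb (Prdx2) and 7.28% of Jun (Junos), which leaves those counts uncertain too. Prdx2, an abundant peroxide reductase gene, averaged 286 CPM for control and 317 CPM for p27OE.

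Within each group the library numbered 1 was the lowest or the highest for most of these genes. The libraries numbered 1 were the lowest of both groups for 7 of the 10 genes, Fosb, Fosl1, Fosl2, Jun, Junb, Egr2 and Egr3, and the highest of both for Jund. Over all tested genes 27.2% were lowest and 28.0% were highest there in both groups. When the fit also took in each library's Y-linked level, 5 of the 10 were lower in p27OE by edgeR, beside 16.0% of all tested genes lower in that fit. They were Egr3 (log2 fold change -0.79 ± 0.15, SE, edgeR adjusted p = 0.00814), Fosb (-0.76 ± 0.18, 0.0175), Jund (-0.18 ± 0.05, 0.0252), Egr1 (-0.39 ± 0.12, 0.0416) and Fos (-0.38 ± 0.12, 0.044). Fosl1, Fosl2, Jun, Junb and Egr2 did not pass in it. Leaving out EV control 1 alone, the library with the highest macrophage markers, left p27OE below control without overlap in 8 of the 10, among them the 4 of the full comparison, beside 26.5% of all tested genes lower by that rule and 55.5% apart in either direction. Egr3 alone of the 10 was then called (edgeR), beside 6.75% of all tested genes lower and 12.9% in all. Without both libraries numbered 1, edgeR called Junb and Egr3, both lower, beside 8.90% lower and 16.7% in all. All 10 were then apart between groups of 2 libraries, 9 lower and Fosl2 higher, beside 31.5% of all tested genes lower and 66.3% apart in either direction. Using the library number as a block, which these data do not show to pair the samples, it called Fosb, Junb and Egr3 as lower, beside 17.2% of all tested genes called.

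**Figure D4:**
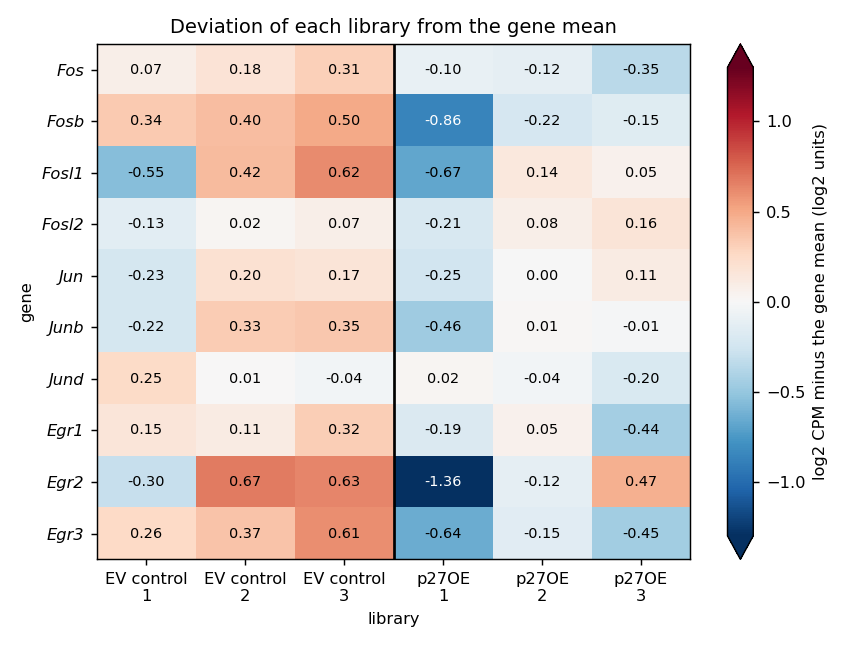
Log2 CPM of each gene in each library minus that gene's mean over the 6 libraries (colour and printed value). Egr3, Fosb, Fos and Egr1 are positive in all 3 EV control columns, and Fosl1, Fosl2, Jun, Junb and Egr2 are negative in both columns numbered 1.

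For the gene with the widest range in each family, the genes of most similar profile were sought among 10353 tested genes, by the root mean square difference of centred log2 CPM over the 6 libraries. Nearest to Fosb were Ctsc, which encodes cathepsin C, at 0.109 log2 units, Eno1b at 0.129 and Hoxb8 at 0.129, where the median gene was at 0.492. Eno1b is a near copy of the enolase gene Eno1, so its count is uncertain. Egr3 was the nearest of the other 9 genes to Fosb, at 0.163, with 7 genes nearer. Nearest to Junb were Mcf2l at 0.0474, Dcbld1 at 0.0478 and Pak1, a kinase of the cytoskeleton, at 0.0503, against a median of 0.325. Jun was at 0.136 from it, with 270 genes nearer. Nearest to Egr2 were Adcy7, an adenylyl cyclase gene, at 0.109, the cadherin gene Cdh10 at 0.117 and Col7a1, the collagen VII gene, at 0.122, against a median of 0.72. The libraries share scaling and the differences described above, so these distances are descriptions.

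Other immediate early genes lay on both sides of 0. Of 22 tested, 13 were above 0 and 9 below, with a median of 0.12, 1 rose and 0 fell by edgeR, beside 1.77% of all genes that rose and 0.843% that fell. Nr4a1, an orphan nuclear receptor gene induced by many of the same stimuli, rose from 31.8, 30.6 and 35.1 CPM to 44.5, 47.5 and 57.1 CPM (log2 fold change 0.61 ± 0.11, SE, edgeR adjusted p = 0.0494). That call sits at the threshold: it was lost with RLE scaling, and with any 1 library other than EV control 1 left out the edgeR adjusted p was 0.0822 to 0.225. Nr4a3, its relative, measured 0.550, 0.413 and 0.790 CPM under control against 1.49, 1.42 and 1.71 CPM under p27OE, and did not pass (edgeR adjusted p = 0.0664). Klf4, a Krüppel-like factor gene, was at 85.1, 53.2 and 60.6 CPM and 159, 125 and 99.3 CPM, also without passing (edgeR adjusted p = 0.0719). For Nr4a1, Nr4a3 and Klf4, named for the smallest p of their list, every p27OE library was above every control. Of the 22, p27OE lay above control in 6 and below in 1, beside 33.3% of all tested genes apart in either direction. Allowing for the Y-linked level, 9 of the 22 rose and 3 fell, where 34.0% of all tested genes passed.

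Among other leucine zipper genes that can pair with FOS or JUN proteins, 11 of 13 were tested, 7 above 0 and 4 below, with a median of 0.06, and 0 passed by edgeR. Atf3, a stress-induced partner, measured 5.97, 3.90 and 3.53 CPM under control against 2.70, 3.16 and 2.74 CPM under p27OE (log2 fold change -0.64 ± 0.24, SE, edgeR adjusted p = 0.163). Atf4, the effector of the integrated stress response, was at -0.39 ± 0.17, and Mafk, a small MAF gene, at 0.55 ± 0.21, on the same scale. Atf3 was at -0.39 without EV control 1, and without p27OE 3 Atf4 was at -0.26 and Mafk at 0.32. Atf3 and Atf4 had all p27OE libraries below control and Mafk had all above, and none of these 3 genes passed. In the whole list p27OE lay above control in 1 gene and below in 2, beside 33.3% of all tested genes apart.

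Upstream, SRF and its cofactors had 3 genes above 0 and 3 below, with a median of 0.06 and 0 passing by edgeR. Elk1, an ETS partner of SRF that ERK phosphorylates, measured 31.8, 30.9 and 29.1 CPM under control against 36.3, 38.2 and 43.6 CPM under p27OE, all higher, without passing (edgeR adjusted p = 0.0743). It was the only gene of its list whose groups did not overlap. Mkl1 and Mkl2, which encode actin-regulated SRF cofactors, were at 0.22 ± 0.12 and 0.13 ± 0.12 (log2 fold change, SE). Of 18 tested MAP kinase pathway genes 0 rose and 1 fell, with 9 above 0 and 9 below. Mapk12, which encodes p38 gamma, fell from 13.2, 14.2 and 14.9 CPM to 8.55, 8.04 and 7.50 CPM (log2 fold change -0.81 ± 0.11, SE, edgeR adjusted p = 0.0303). It did not pass with any 1 library other than EV control 1 left out (edgeR adjusted p 0.0707 to 0.189). Mapk11, encoding p38 beta, was at -0.52 ± 0.15 and Map2k6, an activating kinase of p38, at -1.09 ± 0.42, both with every p27OE library below control and neither passing. Of the 18, p27OE lay above control in 2 and below in 3, beside 33.3% of all tested genes apart in either direction.

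The targets listed for each family went both ways. Of 18 tested AP-1 targets 8 were above 0 and 10 below, with a median of -0.06, 1 rose and 0 fell by edgeR. The riser was Ccnd1, which encodes cyclin D1, at 282, 367 and 377 CPM in EV control and 575, 584 and 558 CPM in p27OE (edgeR adjusted p = 0.045). It too did not pass with any 1 library other than EV control 1 left out (edgeR adjusted p 0.0903 to 0.202). Mmp9, a gelatinase gene, was at 0.875, 2.18 and 1.41 CPM and 0.498, 0.677 and 0.529 CPM, all p27OE libraries lower, and did not pass (edgeR adjusted p = 0.0922). Ccnd1 and Mmp9 were the only genes of the 18 whose groups did not overlap, beside 33.3% of all tested genes. Hmox1, the heme oxygenase gene, was at 0.45 ± 0.18 (log2 fold change, SE) with overlapping groups, or 0.26 without p27OE 3. Of 14 tested EGR targets 8 were above 0 and 6 below, with a median of 0.07 and 0 passing by edgeR. Thbs1, the thrombospondin gene, was above control in every p27OE library (log2 fold change 0.63 ± 0.22, SE) and Vegfa below in every one (-0.41 ± 0.13). Of the 14, p27OE lay above control in 1 and below in 2. Fgf2, a growth factor gene, overlapped between groups at 1.20 ± 0.61, or 0.46 without p27OE 3.

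**Figure D5:**
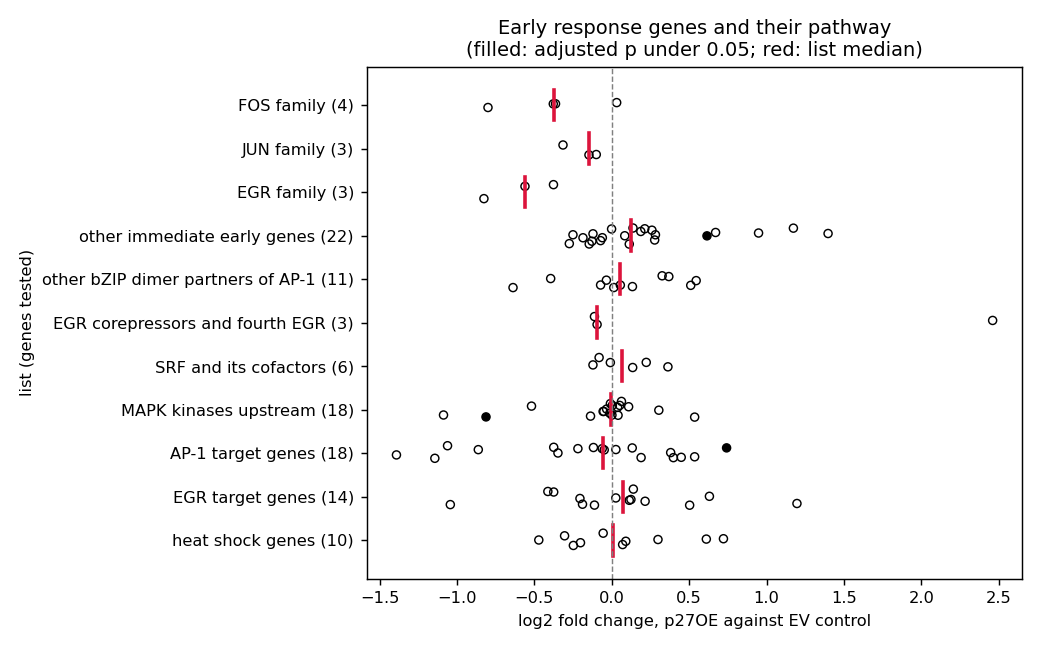
Log2 fold change of every tested gene in the 3 families and in 8 related lists, filled where the edgeR adjusted p is under 0.05, with the list median in red. The families have medians of -0.37, -0.15 and -0.56, and the other immediate early genes one of 0.12.

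Heat shock genes, which respond to handling and protein stress, gave 5 of 10 above 0, a median of 0.01 and 0 passing by edgeR. Hspe1 was at -0.25 ± 0.09, Hspd1 at -0.47 ± 0.19 and Bag3 at 0.30 ± 0.15 (log2 fold change, SE), or 0.15 for Bag3 without EV control 1. Among fibroblast markers 5 of 10 were above 0 (median -0.06), with S100a4 at 0.53 ± 0.10, Thy1 at -0.38 ± 0.17 and Col1a1 at -0.21 ± 0.17 (-0.05 without EV control 1), none passing. All 14 tested macrophage markers lay below 0 (median -1.15) and none passed, with Cd14 at -0.67 ± 0.21, Itgam at -2.37 ± 0.91 and Laptm5 at -1.77 ± 0.90, and 1 of the 15, Aif1, averaged under 0.1 CPM. EV control 1 carried much of this for Itgam and Laptm5, which were at -0.87 and -0.097 without it. Cd14 did not shrink and was then at -0.74. The summed macrophage level of p27OE 2 and 3, 31.5 and 38.8 CPM, was above that of EV control 2 and 3, 25.8 and 19.8 CPM. Endothelial markers summed to 16.0 to 32.5 CPM in EV control and 11.6 to 21.3 CPM in p27OE, with Cdh5, Tie1 and Cldn5 under 0.1 CPM. Of 5 tested, Egfl7 was at -0.48 ± 0.14, Erg at -1.11 ± 0.67 and Tek at 1.38 ± 0.60, with Erg at -0.31 without EV control 1 and Tek at 0.73 without p27OE 1. Epithelial markers summed to 16.5 to 40.4 and 23.5 to 34.5 CPM, with Epcam, Krt5, Krt14, Cldn4, Esrp1 and Grhl2 under 0.1 CPM. Of 4 tested, Cdh1, Krt18 and Krt19 were at 2.74 ± 1.47, 0.54 ± 0.74 and -0.35 ± 0.35. Cdh1 had 104 counts in p27OE 1 and 2 to 13 in the other libraries, and was at 0.24 without p27OE 1 and 4.39 without EV control 1. Krt18 ran from -0.26 (without p27OE 3) to 0.92 (without p27OE 1), and Krt19 from -0.69 (without EV control 1) to -0.16 (without EV control 2). Skeletal muscle markers summed to 28.1 to 55.9 and 40.5 to 122.8 CPM, with Myod1, Myog, Myf5, Myh3 and Tmem8c under 0.1 CPM, and of 4 tested Des, Chrna1 and Tnnt1 were at 0.79 ± 0.44, 0.48 ± 0.52 and 0.28 ± 0.52. Without p27OE 3, Des was at 0.29 and Chrna1 at 0.03, and without EV control 3 Tnnt1 was at -0.09. In bulk RNA, fewer cells of a type and less RNA per cell cannot be told apart, and the part of these cells in the levels of the 10 genes was not tested.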

How the data were processed

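The deposited table gives raw read counts per gene symbol for each sample, not normalised by the authors. Per the submitters' processing notes, the tools included TopHat2 2.0.14, featureCounts 1.4.6 from Subread and Bowtie2 2.2.6, with build mm10. Annotation, strand setting and filters are not given in the sources used here. Per the labels' protocols the library kit was TruSeq v2.

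Genes kept by filterByExpr held 99.976% of the counts. They were scaled by TMM and compared by group in edgeR 4.0.16 under R 4.3.3 (robust quasi-likelihood, two-sided). Benjamini-Hochberg adjustment ran over 13990 genes, with 0.05 as the threshold. SEs and 95% intervals come from that fit, and log2 CPM used a prior count of 2. Coordinates and exon lengths are from GENCODE M21 (GRCm38, the assembly of mm10). Within groups no 2 libraries matched within sampling noise (chi-square per gene 6.27 to 178.3). On the simulated data, which lacked the shift shared by the libraries numbered 1, 8 of 131 calls were false. That share does not carry over to the calls in the real counts.

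The 10 genes, the lists, the Y-linked term and the omission of libraries numbered 1 were chosen with earlier results of these data known. Beside the 10 and Cdkn1b, named genes are the 3 of smallest p and every called gene in each list, plus the 3 nearest in profile to the widest-ranging gene of each family. Among genes named from lists, groups that do not overlap are therefore favoured by the choice. The alternatives changed the scaling (RLE, upper quartile, total count), the filter (none, or 1 CPM in 3 libraries), the tool (DESeq2 1.42.0, limma-voom from limma 3.58.1), the terms (replicate block, Y-linked level) and the libraries (each omitted singly, and both numbered 1).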

Additional observations from a re-analysis of the deposited data

How the results depend on the processing

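Over the table, 365 genes were called. DESeq2 called 2321, the replicate block 2410, the fit that took in the Y-linked level 4761, and omission of both libraries numbered 1 gave 2334. Omitting EV control 1 gave 1827, whereas omitting any other single library gave only 1 or 2. The 365 calls thus depended on nearly every library. Of the 10 genes, 0 were called at first, 2 with DESeq2, 3 with the replicate block, 5 with the Y-linked level, 2 without both libraries numbered 1, and 0 to 1 on omitting single libraries. The other scalings, filters and limma-voom called 0. The 4 genes whose groups did not overlap became 10 without both libraries numbered 1, 9 of them lower and Fosl2 higher. Of all tested genes 66.3% were then apart. On omitting single libraries they became 4 to 8. They were 8 without EV control 1, beside 55.5% of all tested genes apart, and 6 without p27OE 1, beside 44.5%. The cause was not tested. Library numbers were not taken as pairs: deviations of same-numbered libraries correlated at 0.669, 0.043 and 0.495 over genes, and EV control 2 was closest to p27OE 3 (0.555).

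Of the 10, only Fosl2 changed sign in any of 16 alternatives, running from -0.047 to 0.12 (log2 fold change) on omitting single libraries. Among other named genes, signs turned for Ddx3y (0.29 with limma-voom, 0.85 with the Y-linked level, -1.57 to 0.15 on omission), Kdm5d (0.52 and 0.57 in those 2 fits), Uty (0.79 with the Y-linked level, -1.31 to 0.33 on omission), Laptm5 (0.092 without both libraries numbered 1), Krt18 (-0.26 to 0.92 on omission) and Tnnt1 (-0.088 to 0.77 on omission). Ddx3y, Kdm5d and Uty are themselves part of the Y-linked level, so the fit with that level cannot test them. Of the 10 genes, Fosb had the fewest counts, 72 to 229 a library.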
